A study of Mus musculus with 4 samples.

Results

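Myl2-high cardiomyocytes were the muscle cells of the E9.5 mouse heart library whose transcripts were rich in Myl2, the regulatory light chain of ventricular myosin. A cell counted as a cardiomyocyte where Myl7, Myl4, Tnnt2 and Actc1 together reached 100 UMIs (unique molecular identifiers, counted transcripts) per 10000 UMIs of that cell and the haemoglobin chains stayed under 1000 per 10000. A cardiomyocyte was Myl2-high where Myl2 reached 10 per 10000. Of 1206 cells in the library, 1199 had at least 500 genes and at most 10% mitochondrially encoded UMIs, and 544 of these were cardiomyocytes. Myl2-high cells numbered 117, which was 21.5% of the cardiomyocytes (exact Clopper-Pearson 95% interval 18.1 to 25.2) and 9.76% of the kept cells (8.14 to 11.6).

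The study followed cells of the Tie2-Cre lineage, the descendants of endothelium, towards the mouse mitral valve. Embryos came from C57BL/6 mice that carried Tie2-Cre and a tdTomato reporter at Rosa26, so that Cre driven by the Tie2 promoter turns the reporter on. At E9.5 the atrioventricular canal, the myocardial cuff between the chambers, was microdissected and red fluorescent cells were sorted, with at least 60 embryos for each stage. Embryos were thus pooled, and all E9.5 cells came from 1 library. Tie2-Cre is not expected to mark heart muscle, but tdTomato is absent from the deposited gene list, so whether these cells carried it could not be examined. With 1 library there was no replicate and no test was made; every interval covers counting error only. Because the cells were chosen by Myl2, its level is a description, and every other gene is described in the same cells. The dissection set which cells entered the library, so shares describe the library and not the heart.

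In the looping heart tube, the chambers of the heart grow out from the early tube and switch on genes for fast conduction and strong contraction, while the canal between them keeps an early, slowly conducting state. Ventricular muscle takes on Myl2, the heavy chain Myh7 and Iroquois and Hey2 transcription factors, whereas atrial muscle is patterned by Nr2f1 and Nr2f2, the COUP nuclear receptors, and by Hey1. Nppa and Nppb, which encode natriuretic peptides, mark the working muscle of the chambers in both territories, and Tbx2, Bmp2 and Msx2 mark the canal.

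The Myl2-high cells held 2509590 UMIs in all, and the median cell had 21909 UMIs and 4516 genes, against 24096 UMIs and 4847 genes in the 427 other cardiomyocytes (10322848 UMIs). Myl2 ranged from 10.0 to 128 per 10000 across the Myl2-high cells with a median of 34.9, and 67 cells stood at 30 or more. In the other cardiomyocytes the median was 0.726 and 114 cells had no Myl2 UMI. In 247 erythroid cells of the same library, which should not make Myl2, the median was 0.275, below that of the other cardiomyocytes. Whether free RNA gave the low Myl2 of some cardiomyocytes was not tested. The threshold did not fall in a gap. The nearest cells stood at 10.01 inside and 9.999 outside, and 13 cells lay from 8 to under 10 and 13 from 10 to under 12.

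**Figure D1:**
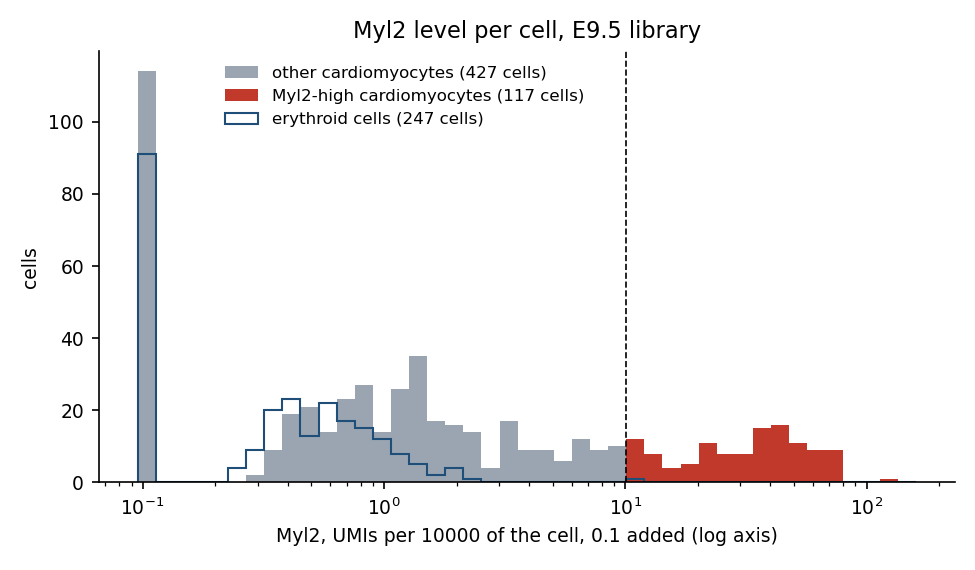
Number of E9.5 cells (vertical axis) by their Myl2 level in UMIs per 10000, with 0.1 added, on a log axis, for Myl2-high cardiomyocytes, other cardiomyocytes and erythroid cells. The dashed line is the threshold of 10 per 10000; the 117 Myl2-high cells reach 128, the cells with no Myl2 UMI form the bar at the left, and no empty stretch separates the groups at the line.

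Of the 4 markers proposed for these cells, Myl2, Myh7 and Pln were high in them, and Nppb was high in few of them. Myh7, the slow beta heavy chain of the ventricle, stood at 10.6 UMIs per 10000 (exact Poisson 95% interval 10.2 to 11.0) in the summed Myl2-high cells and at 2.04 (1.95 to 2.13) in the others. The ratio was 5.17 (exact conditional interval 4.88 to 5.48). Across single Myl2-high cells Myh7 ran from 0 to 42.7 with a median of 9.58, and across the others from 0 to 29.3 with a median of 1.37, so the groups overlapped while their middles lay far apart. Pln, phospholamban, which restrains the calcium pump of the sarcoplasmic reticulum, stood at 2.45 (2.26 to 2.66) against 0.246 (0.217 to 0.278), 9.98-fold higher (8.61 to 11.6). A Pln UMI was seen in 68.4% of Myl2-high cells and 19.9% of the others. With each cell thinned to 10000 UMIs, which left out 12 and 43 shallower cells, these shares were 55.2% and 13.5%, beside 2.97% in erythroid cells.

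Nppb, the B-type natriuretic peptide, summed to 3.28 (3.06 to 3.52) against 1.42 (1.35 to 1.497), a ratio of 2.31. A single cell with 353 UMIs held 42.8% of the Nppb of the Myl2-high cells. Without the richest cell of each group the levels were 1.90 and 1.35, a ratio of 1.41. A Nppb UMI was found in 42.7% of Myl2-high cells and 39.6% of the others, so Nppb did not separate the 2 groups. Nppa, the atrial natriuretic peptide, stood at 15.0 against 5.69 per 10000, and 21.1% of it came from 1 cell; without the richest cells the ratio was 2.23.

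Myl2 lies on chromosome 5 from 122100951 to 122113472 (GRCm38, as are all positions here), Myh7 on chromosome 14 from 54970684 to 54994626, Pln on chromosome 10 from 53337667 to 53345987 and Nppb on chromosome 4 from 147985788 to 147987205. Myl2, Myh7 and Pln each overlap a gene of the opposite strand (Ccdc63, Mhrt and Cep85l). The strand used in counting is not given in the sources used here, so whether reads of these pairs were counted apart could not be checked.

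The promoters of Pln, Myh7, Nppb and Nppa are shown for comparison (RefSeq, GRCm38.p6, each 300 bases from 250 before to 50 after the start, 5′ to 3′ on the gene's strand). Across single cardiomyocytes, Spearman's rho with Myl2 was 0.354 for Pln and 0.497 for Myh7. It was 0.011 for Nppb and 0.0746 for Nppa, although the summed level of Nppa was higher in Myl2-high cells. Capitals mark GATAA, bound by GATA factors, and CATTCC, bound by TEAD factors, on either strand.
Pln, chr10:53337436-53337735, plus strand: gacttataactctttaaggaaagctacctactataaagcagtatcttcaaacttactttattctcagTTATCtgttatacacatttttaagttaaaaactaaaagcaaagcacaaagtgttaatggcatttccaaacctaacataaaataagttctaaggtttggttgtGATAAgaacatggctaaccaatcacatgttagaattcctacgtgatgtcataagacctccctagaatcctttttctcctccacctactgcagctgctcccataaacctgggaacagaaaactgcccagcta
Myh7, chr14:54994577-54994876, minus strand: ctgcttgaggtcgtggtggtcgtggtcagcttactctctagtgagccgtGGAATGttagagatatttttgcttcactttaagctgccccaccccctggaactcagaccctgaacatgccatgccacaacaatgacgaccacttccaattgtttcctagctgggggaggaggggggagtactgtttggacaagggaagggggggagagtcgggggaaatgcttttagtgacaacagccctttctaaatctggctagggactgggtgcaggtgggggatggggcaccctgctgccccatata
Nppb, chr4:147985650-147985949, plus strand: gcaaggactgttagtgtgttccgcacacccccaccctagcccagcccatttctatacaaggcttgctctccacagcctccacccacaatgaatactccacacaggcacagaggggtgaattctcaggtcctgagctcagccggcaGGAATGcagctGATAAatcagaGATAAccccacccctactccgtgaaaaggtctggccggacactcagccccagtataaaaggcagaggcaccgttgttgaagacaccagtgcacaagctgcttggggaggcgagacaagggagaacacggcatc
Nppa, chr4:148000472-148000771, plus strand: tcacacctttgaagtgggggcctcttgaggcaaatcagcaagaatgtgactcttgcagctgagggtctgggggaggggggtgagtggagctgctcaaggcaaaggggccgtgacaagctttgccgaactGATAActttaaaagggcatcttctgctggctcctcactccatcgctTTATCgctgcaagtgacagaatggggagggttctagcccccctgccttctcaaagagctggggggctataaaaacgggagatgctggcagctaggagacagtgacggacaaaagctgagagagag
GATAA was present 2 times in the windows of Pln, Nppb and Nppa and 0 times in that of Myh7. CATTCC was present 1 time each in Myh7 and Nppb. TNAAGTG, a site of NKX2-5, was present 1 time each in Myh7 and Nppa, and no match of these motifs overlapped another. The MEF2 box and the CArG box, searched by name on both strands, were at 0 in all 4 windows. Over 32544 promoters of the same length, 25.3% held GATAA, 14.6% CATTCC, 11.5% TNAAGTG, 3.16% the MEF2 box and 1.64% the CArG box. The RefSeq start used for Nppb lies 112 bases from the start of the gene in the GENCODE annotation, and that for Pln 19 bases. No motif searched was found in the windows of both Pln and Myh7.

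Across all genes few differed between the Myl2-high cells and the other cardiomyocytes. Genes were compared where the higher group had at least 0.5 UMIs per 10000 and a UMI in at least 20% of its cells. A gene was called where the levels, with 0.1 per 10000 added to each, differed at least 2-fold. Of 3038 genes, 23 were higher (0.757%) and 25 lower (0.823%), and the median log2 ratio was −0.06. Of the 23 higher genes 8, Myl2 and Nppb included, belonged to the ventricular identity list. Of the 25 lower genes 7 belonged to the atrial identity list. None of the lists used here held 10 of the higher and 14 of the lower genes. The lists were chosen with earlier results of these data known, and the filter was applied to the higher group only. Counts of called list genes here and below are therefore descriptions.

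**Figure D2:**
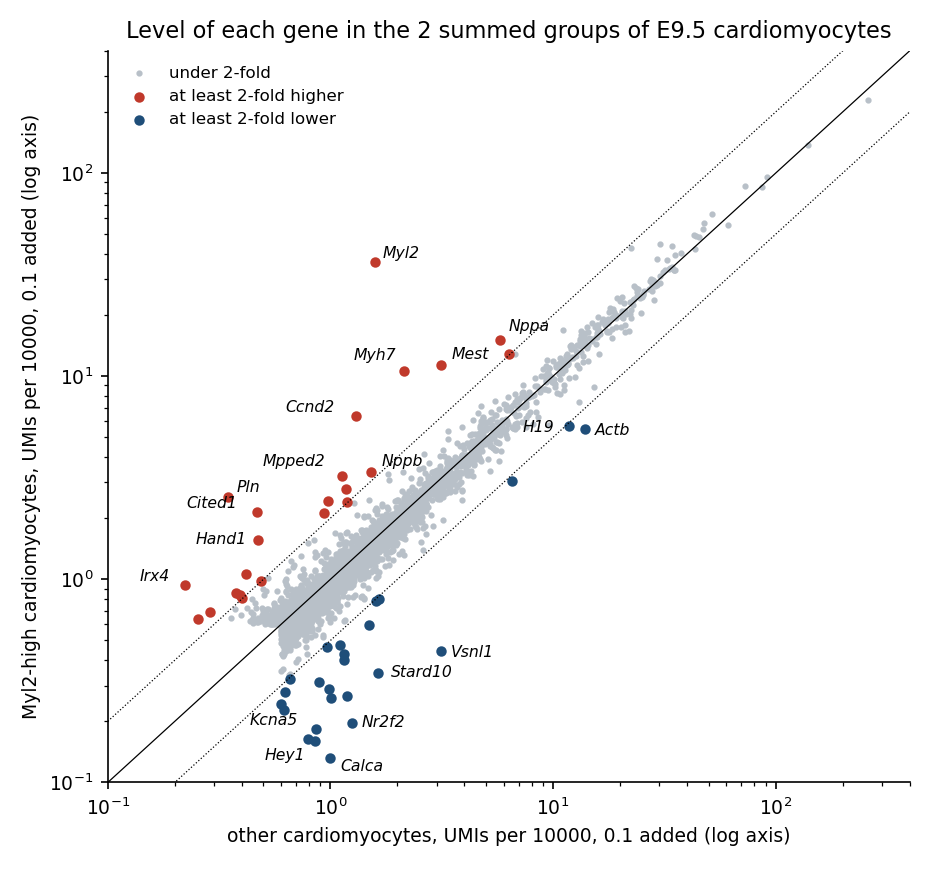
Level of each of the 3038 compared genes in the summed other cardiomyocytes (horizontal) and Myl2-high cardiomyocytes (vertical), in UMIs per 10000 with 0.1 added, on log axes; the solid line is equality and the dotted lines are 2-fold. The 23 higher and 25 lower genes stand off a narrow diagonal, with Myl2 farthest above it and Calca, Vsnl1 and Nr2f2 far below it.

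Of the 15 genes of the ventricular identity list other than Myl2, 12 were compared, 7 were called higher and 0 lower, with a median log2 ratio of 1.20. Over all compared genes 0.757% were higher and 0.823% lower. Irx4, Hand1 and Pln passed the filter only through the Myl2-high cells. The 7 included Nppb, whose ratio was 1.41 without the richest cell of each group. These 15 genes summed to 88.7 UMIs per 10000 (87.6 to 89.9) against 47.1 (46.7 to 47.5). Irx4, an Iroquois factor of the ventricle, stood at 0.833 (0.724 to 0.954) against 0.122 (0.102 to 0.145) per 10000, 6.82-fold higher (5.44 to 8.58). After thinning, 48.6% of Myl2-high cells and 7.55% of the others had an Irx4 UMI, beside 1.27% of erythroid cells. Hand1, a basic helix-loop-helix factor of the left ventricle, stood at 1.47 against 0.374 (3.92-fold, 3.39 to 4.54). Lbh, a transcription cofactor of limb bud and heart, stood at 2.68 against 1.07 (2.49-fold), and Mpped2, a metallophosphodiesterase, at 3.12 against 1.03 (3.03-fold). Hand1, Lbh and Mpped2 were also high in the Rspo3-positive part of the other cardiomyocytes, described further on, at 0.839, 1.97 and 1.52 per 10000, and against those cells none of the 3 was called (log2 ratios of 0.74, 0.42 and 0.99). Myl3, the ventricular essential light chain, was 1.91-fold higher (42.6 against 22.3) and stayed under the threshold, as did Hand2, the partner of Hand1, at 0.462 against 0.575.

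Other ventricular factors were too sparse to be compared but were nearly confined to the Myl2-high cells within the cardiomyocytes. Hey2, a repressor of atrial genes in ventricular muscle, had 90 UMIs in Myl2-high cells and 10 in the others. After thinning, 29.5% of Myl2-high cells (21.0 to 39.2) and 0.521% of the others (0.0631 to 1.87) had a Hey2 UMI, and 0% of erythroid cells. Hey1, its atrial relative, showed the reverse, at 0.0598 against 0.753 per 10000. Hey2 made up 85.7% of Hey2 and Hey1 UMIs together in Myl2-high cells (77.5 to 91.8) and 1.27% in the others (0.611 to 2.32). Irx1 and Irx2, neighbours of Irx4 on the chromosome, had 39 and 45 UMIs in Myl2-high cells against 3 and 5.

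Most compared atrial genes were lower. Of the atrial identity list, 13 of 18 genes were compared, 7 were called lower and 1 (Nppa) higher, with a median log2 ratio of −1.78. The shares over all compared genes were 0.823% lower and 0.757% higher. The 7 stood under 0.5 per 10000 in Myl2-high cells and passed the filter only through the others, so their number and the median are descriptions. The summed list was not lower, at 44.8 per 10000 (43.9 to 45.6) against 41.6 (41.2 to 42.0), and it holds Nppa at 15.0 against 5.69. Nr2f2 stood at 0.0956 (0.0613 to 0.142) against 1.14 (1.08 to 1.21) per 10000, 11.96-fold lower (8.001 to 18.7), and Nr2f1 at 0.0638 against 0.696 (10.9-fold lower). After thinning, a Nr2f2 UMI was found in 8.57% of Myl2-high cells, 54.2% of the others and 3.39% of erythroid cells. Vsnl1, a neuronal calcium sensor made in atrial and sinus muscle, stood at 0.343 against 3.02 (8.82-fold lower, 7.12 to 11.1). Kcna5, the atrial potassium channel Kv1.5, was 9.10-fold lower (0.0837 against 0.761), Stard10, a lipid transfer protein, 6.21-fold lower and Angpt1, a ligand of the Tie2 receptor, 4.72-fold lower. Against the Rspo3-positive others alone, Nr2f1, Nr2f2, Hey1, Stard10 and Angpt1 were too low in both groups to be compared. Their log2 ratios were −0.93, −1.55, −0.83, −0.51 and 0.25. The call of Nppa was lost at a mitochondrial limit of 5% (log2 ratio 0.88) and at a Myl2 threshold of 5 per 10000 (0.89), against 1.39 as given. Tbx5, a T-box factor of the atria and left ventricle, stood at 0.526 against 1.05 and was not called.

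The lowest gene relative to the others was Calca, which encodes calcitonin and its related peptide, with 8 UMIs in Myl2-high cells against 921, 28.0-fold lower (14.1 to 65.0). Its thinned share of 1.90% of cells was no higher than the 2.12% in erythroid cells. Lower as well were Crabp2, a retinoic acid binding protein (6.48-fold), Cav1, a caveolar coat protein (3.74-fold), Pvalb, a calcium buffer (3.46-fold) and Dcaf12l1 (5.71-fold). The secreted Wnt antagonists Sfrp5 and Sfrp1 were 4.07-fold and 2.19-fold lower. Among abundant transcripts, Actb, cytoplasmic actin, stood at 5.41 (5.13 to 5.71) against 13.8 (13.6 to 14.0), and H19, an imprinted non-coding RNA, at 5.59 against 11.7. In the Rspo3-positive others Calca, Sfrp5, Sfrp1, Actb and H19 stood at 0.264, 0.196, 1.02, 8.25 and 6.77. Against those cells Sfrp1, Actb and H19 were compared and not called. Calca and Sfrp5 were too low in both groups to be compared, and the log2 ratio of Calca was −1.46. Single cells spread widely for Actb, from 0 to 31.4 with a median of 3.86 among Myl2-high cells and from 0 to 239 with a median of 6.84 among the others. Shox2, a factor of the sinus venosus that was too sparse to be compared, had 7 UMIs against 455.

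Several leading higher genes were outside the ventricular list. Ccnd2, cyclin D2, which drives entry into the cell cycle, stood at 6.28 (5.98 to 6.60) against 1.21 (1.14 to 1.28), 5.202-fold higher. Cdkn1c, the p57 inhibitor of the same kinases, stood at 12.7 against 6.62, 1.92-fold higher and under the threshold. Mest, an imprinted gene active from the paternal copy, stood at 11.3 against 3.04 (3.70-fold), and Cited1, a transcription co-activator of early trabecular muscle, at 2.05 against 0.370 (5.53-fold, 4.84 to 6.33). Smaller calls were Ppp1r17, a phosphatase inhibitor (3.51-fold), Tgm2, a transglutaminase (3.12-fold), Cd9, a tetraspanin (2.99-fold), Capn6, a calpain without protease activity (2.66-fold), and Vcan, the proteoglycan versican of the cardiac jelly (2.12-fold). Cd9, Capn6 and Vcan stood at 0.956, 2.33 and 2.30 in Myl2-high cells and at 0.640, 1.58 and 1.40 in the Rspo3-positive others. Against those cells none of them was called. Tppp3, a tubulin-binding protein, was called at 2.36-fold, but 47.5% of its UMIs came from 1 cell and the ratio without the richest cells was 1.39.

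Few genes of the contractile apparatus were called, and each of those was higher. The 8 cardiomyocyte markers that the rule did not use summed to 139.7 UMIs per 10000 (138.3 to 141.2) in Myl2-high cells and 122.3 (121.6 to 123.0) in the others. The genes of the rule, Myl2 included, were left out of the counts that follow. Of 7 compared light chain genes 0 were called and of 7 heavy chain and thick filament genes 1 (Myh7). Of 13 thin filament genes 1 was called (Acta1) and of 17 Z-disc and costamere genes 0, with 0 lower in each list. The 4 genes that defined a cardiomyocyte are given as a description. Actc1, cardiac actin, stood at 137 against 139 and Tnnt2, cardiac troponin T, at 48.7 against 44.0. Myl7 and Myl4, light chains of the early heart that later stay in the atria, stood at 230 against 259 and at 95.9 against 91.7.

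Isoform balance is given as a share of the UMIs of both genes. Myh7 made up 56.8% of Myh7 and Myh6 UMIs (55.3 to 58.2) in Myl2-high cells and 16.1% (15.5 to 16.8) in the others, and Myh6, the fast alpha heavy chain, itself stood at 8.03 against 10.6. Myl2, whose level the rule set, made up 13.7% of Myl2 and Myl7, so Myl7 was still the more frequent regulatory light chain transcript in Myl2-high cells. Myl3 made up 30.8% of Myl3 and Myl4 against 19.6%. Acta1, skeletal actin, made up 8.56% of Acta1 and Actc1 against 4.30%; their coding sequences are nearly identical, so reads could be split between them. Tnni1, the slow fetal troponin I, made up 67.9% of Tnni1 and Tnni3 against 65.8%, a far smaller difference than for the myosins.

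Of 12 calcium handling genes 1 was called higher (Pln) and 0 lower. Trdn, triadin of the calcium release complex, was 2.09-fold higher (2.30 against 1.104) but under 2-fold once 0.1 was added, and Atp2a2, the pump that phospholamban restrains, stood at 6.57 against 8.32. In the respiratory chain list 0 of 32 genes were called, but all 32 lay above a ratio of 1, with a sum over the whole list of 411 (409 to 414) against 352 (351 to 353) per 10000 and a median log2 ratio of 0.21. Ndufs6, a complex I subunit, had the largest of these ratios (7.06 against 4.62 per 10000). The median mitochondrially encoded share of the cells was also higher, 3.71% against 3.08%. Of 18 glycolysis genes 0 were called (median log2 ratio 0.07). Of 20 G2 and M phase genes 0 were called and 19 lay below a ratio of 1. The whole list of 30 summed to 40.2 against 48.1. Within the others, by kinds described further on, that sum was 40.2 in Rspo3-positive cells, 40.6 in Nppa-high cells and 54.0 in cells that met neither. The low sum was thus shared with 2 of these kinds. The 26 S phase genes summed to 18.3 against 19.2.

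The other lists held few called genes. Of 5 trabecular genes 3 were higher (Nppa, Nppb and Cited1), of 4 compact wall genes 1 (Ccnd2), of 5 cyclin and inhibitor genes 1 (Ccnd2) and of 6 matrix genes 1 (Vcan), with 0 lower in each. The call of Nppb was lost, from a log2 ratio of 1.15, at a mitochondrial limit of 5% (0.36), a Myl2 threshold of 5 (0.65), matched total UMIs (0.67), 0.5 per 10000 added (0.98) and without the richest cells (0.47), and that of Nppa under the first 2 of these. Of 20 cardiac transcription factors 2 were higher (Irx4 and Hand1) and 4 lower, among them Nr2f1, Nr2f2 and Hey1, while Nkx2-5, the early cardiac homeobox factor, stood at 5.53 against 6.75 and Gata4 at 0.861 against 1.11. Of 5 neuregulin, FGF and Wnt genes 2 were lower (Sfrp1 and Sfrp5), of 2 sinus venosus genes 1 (Vsnl1), of 3 outflow genes 1 (Crabp2) and of 3 channel and junction genes 1 (Kcna5), with 0 higher in each. Of 7 BMP and Id genes, 16 genes of energy transfer and 13 smooth muscle and early cytoskeletal genes, 0 were called in either direction.

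**Figure D3:**
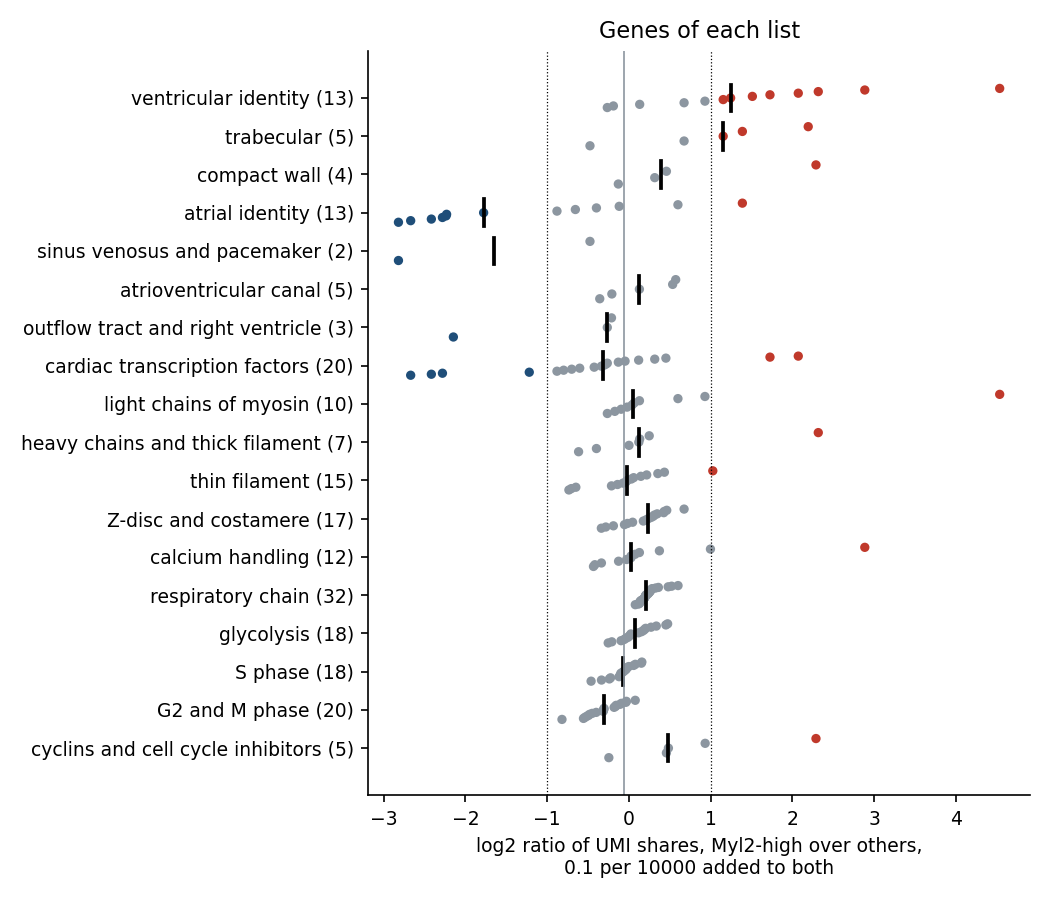
Log2 ratio of each compared gene of 18 gene lists, Myl2-high over other cardiomyocytes, with 0.1 per 10000 added; the number compared stands after each list name, black bars are list medians, the grey line is the median of all 3038 genes and dotted lines are 2-fold. The ventricular list, Myl2 included, lies right with a median of 1.24, the atrial list left with a median of −1.78, and the contractile, respiratory and cell cycle lists lie mostly between the dotted lines.

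The atrioventricular canal list was not called as a whole: of 5 compared genes 0 were higher and 0 lower. This average covered very different cells, since the Myl2-high cells divided by Nppa and Rspo3. Nppa at 10 or more per 10000 was found in 35 of them (29.9%, 21.8 to 39.1). Rspo3, a secreted amplifier of Wnt signals used here as a canal marker, reached 1 per 10000 in 43 (36.8%, 28.0 to 46.2), and only 2 cells met both. The remaining 41 met neither. Among the other cardiomyocytes, 13.1% were Nppa-high, 30.9% Rspo3-positive and 56.4% neither.

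**Figure D4:**
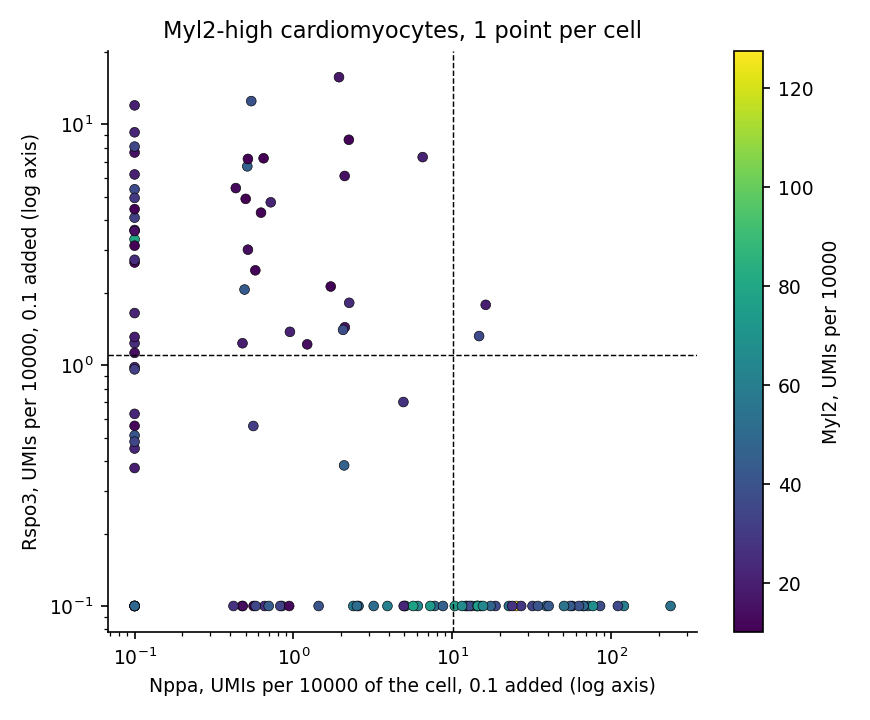
Nppa (horizontal) and Rspo3 (vertical) in UMIs per 10000 of the cell, with 0.1 added, on log axes, for each of the 117 Myl2-high cells, coloured by Myl2. Dashed lines are the thresholds of 10 for Nppa and 1 for Rspo3; 2 cells lie above both, and cells without a UMI line the axes.

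The 35 Nppa-high cells of the Myl2-high group, the 2 that met both included, had the chamber programme, and the 41 cells that were Rspo3-positive without high Nppa had the canal programme. The 2 kinds were compared over 3118 genes, of which 63 were higher (2.02%) and 166 lower (5.32%) in the Nppa-high kind; Nppa and Rspo3 set the kinds and their own ratios are not read. Myl2 stood at 50.7 (49.1 to 52.4) in the Nppa-high kind, 37.3 (36.0 to 38.5) in cells that met neither and 23.3 (22.3 to 24.4) in the Rspo3-positive kind. Myh7 followed the same order at 16.47, 10.5 and 5.50, and Pln at 3.75, 2.63 and 1.17. Myh7 made up 69.7%, 56.2% and 39.0% of Myh7 and Myh6 UMIs.

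The chamber side also held Nppb at 9.14 per 10000 against 1.01 in the Rspo3-positive kind (353 of its 678 UMIs from the 1 rich cell named above), Smpx, a small protein of the costamere, at 9.496 against 1.89, Cited1 at 4.802 against 0.381 and Mest at 25.03 against 1.72 (14.5-fold, 12.3 to 17.3). Ccnd2 was as high in cells that met neither (8.85) as in the Nppa-high kind (8.67) and low in the Rspo3-positive kind (1.56). S phase genes summed to 22.5 in the Nppa-high kind, 21.4 in cells that met neither and 11.6 in the Rspo3-positive kind, and G2 and M phase genes to 47.0, 42.5 and 32.0. Thus Ccnd2 and the cell cycle sums were lowest in the same kind.

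The canal side held Tgfb2, a growth factor that acts on the cushions, at 3.21 against 0.243 in the Nppa-high kind, and Bmp2, the canal signal to the endocardium, at 2.16 against 0.135 (16.02-fold, 8.52 to 34.0). Msx2, a homeobox target of BMP signals, stood at 1.56 against 0.0405 and Tbx2, the repressor of chamber genes, at 0.901 against 0.0809. Id2, a BMP response gene, stood at 16.4 against 3.63. The canal list summed to 15.0 in the Rspo3-positive kind, 5.24 in cells that met neither and 2.48 in the Nppa-high kind. This sum holds Rspo3 itself, so part of its order was set by the choice of cells. The BMP and Id list, which holds neither Rspo3 nor Nppa, summed to 27.8, 16.6 and 8.77 in the same order. Cells that met neither thus lay between the other kinds for the BMP and Id sum as for Myl2.

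Some ventricular factors crossed this division and others did not. Irx4 was present in all 3 kinds, at 0.607 (Nppa-high), 0.853 (neither) and 1.01 (Rspo3-positive), and Hand1 at 0.985, 1.92 and 1.41. Hey2 stood at 0.459, 0.521 and 0.104. Irx2 had 26 UMIs in the Nppa-high kind, 19 in cells that met neither and 0 in the Rspo3-positive kind, where 3 counts of the total would be 0.0347 per 10000, and Irx1 had 23, 15 and 1. Nr2f2 was low in every kind, at 0.0405, 0.0665 and 0.173.

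The like kinds inside and outside the Myl2-high group were then set side by side. Against the 54 other cardiomyocytes that were Nppa-high without Rspo3, the Nppa-high Myl2-high cells had 46 genes higher (1.54%) and 70 lower (2.34%) of 2996. Nppa was high in both sets by choice, at 47.8 against 34.2. Nppb stood at 9.14 (8.47 to 9.86) against 6.08 (5.67 to 6.51), and without the 1 rich cell at 4.59 (4.11 to 5.12) in the Myl2-high set; neither gene was called with all cells. Irx4 had 45 UMIs against 1, Hand1 73 against 3 and Hey2 34 against 0. Pln was 25.6-fold higher (16.2 to 42.5), Cited1 12.4-fold (9.24 to 16.8) and Lbh 9.03-fold (6.14 to 13.6). Nr2f2 had 3 UMIs against 185, Calca 2 against 148 and Nr2f1 4 against 151, and Hey1 was 14.2-fold lower (7.35 to 31.4).

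Against the 132 other Rspo3-positive cardiomyocytes, the 43 Rspo3-positive Myl2-high cells differed in few genes: 9 were higher (0.291%) and 10 lower (0.324%) of 3091. The higher ones besides Myl2 were Lmo2, a LIM-only adaptor of blood and vessel development (0.790 against 0.0804 per 10000, 9.82-fold), Pln (3.44-fold), Gfpt2, an enzyme of hexosamine synthesis (3.34-fold), Irx4 (3.01-fold), Cystm1 (2.56-fold), Myh7 (2.45-fold), Serpinb6b (2.30-fold) and Ccnd2 (2.15-fold). Vsnl1 was 4.57-fold lower, Bmp4, a growth factor of the BMP family, 4.48-fold, Kcna5 3.77-fold and Cav1 2.90-fold. Canal genes other than Bmp4 were not called, with Tbx2 at 0.856 against 0.634 and Bmp2 at 2.06 against 2.80. With all Myl2-high cells, 16 genes were higher (0.524%) and 20 lower (0.655%) than in these Rspo3-positive cells, 63 higher (2.08%) and 42 lower (1.38%) than in the Nppa-high others, and 38 higher (1.23%) and 34 lower (1.1%) than in the 241 others that met neither. Of the 16 and 20, 11 and 10 were also among the 23 higher and 25 lower genes called against all other cardiomyocytes.

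Ordered by Myl2, the 544 cardiomyocytes differed gradually for some genes and in steps for others. Cells were placed in 6 bins from under 1, 1 to 3 and 3 to 10 (all outside the Myl2-high group) to 10 to 20, 20 to 40 and 40 or more per 10000, with 250, 108, 69, 28, 43 and 46 cells. Myh7 was higher in each bin than in the one before, at 1.63, 2.07, 3.60, 5.56, 8.35 and 15.6, and Vsnl1 was lower in each, at 3.59, 2.49, 1.66, 0.769, 0.327 and 0.101. Nr2f2 went from 1.46 to 0.0302. The threshold of 10 therefore divided a graded series for these genes.

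Rspo3 was highest in the middle bins, at 0.428, 1.30, 2.81, 2.94, 1.96 and 0.322. Ccnd2 stood between 0.936 and 1.35 in the 4 lower bins and then at 4.82 and 10.6. Irx4 stood at 0.0338, 0.142 and 0.436 below the threshold and at 0.735, 0.904 and 0.826 above it. Irx1 reached 0.363 and Irx2 0.443 at a Myl2 of 40 or more, and each stayed at or below 0.0334 in the 5 lower bins. Hey2 went from 0.00632 in the bin of 3 to 10 to 0.201, 0.337 and 0.474 above it.

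**Figure D5:**
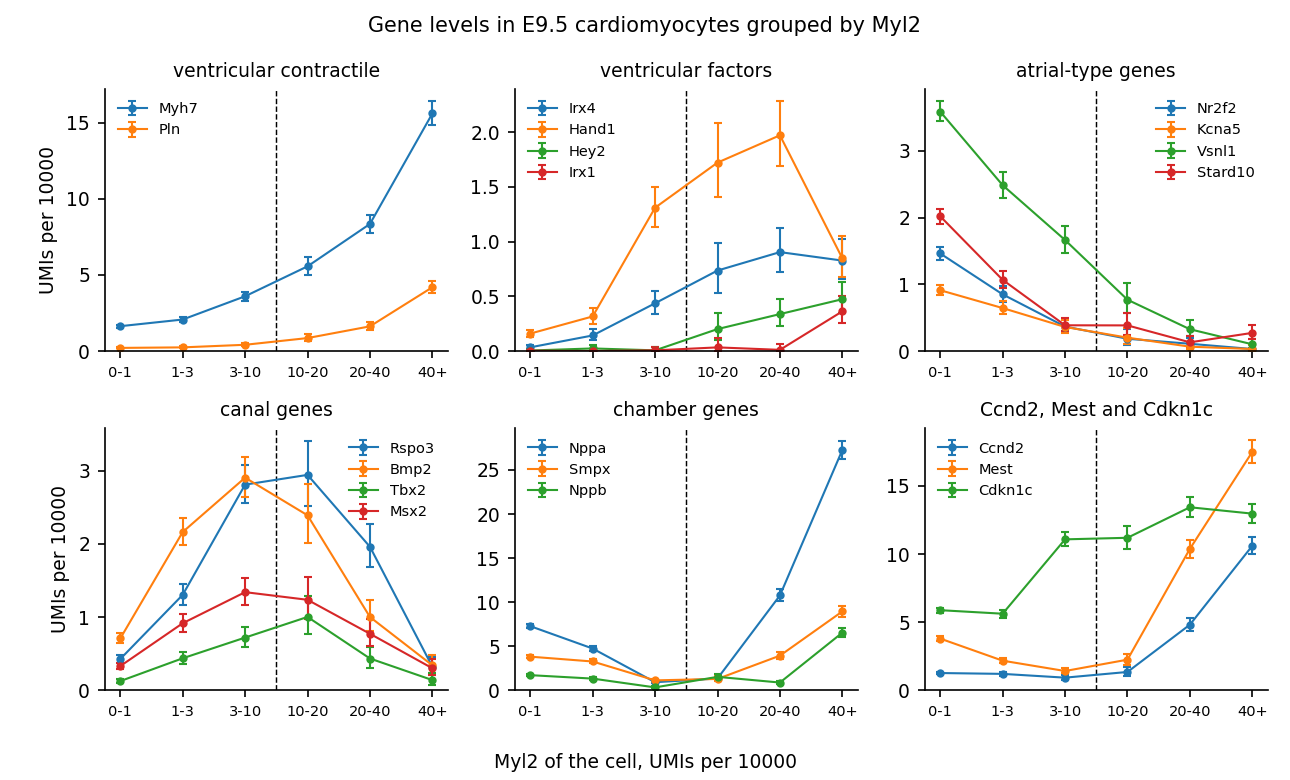
Level in UMIs per 10000 (vertical axes, each from 0) of named genes in 6 bins of cardiomyocytes ordered by Myl2 (horizontal), with exact Poisson 95% intervals as bars; the dashed line is the threshold. Myh7 and Pln are highest and Vsnl1, Nr2f2 and Kcna5 lowest in the last bin, canal genes peak in the middle bins, and Nppa reaches 27.3 and Ccnd2 10.6 in the last.

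Over 489 cardiomyocytes thinned to 10000 UMIs, the genes most like Myl2 by Spearman's rho across 4995 genes were Mpped2 and Myh7 (both 0.497), Myl3 (0.471), Hand1 (0.462), Ndufs6 (0.454), Tnni1 (0.433), Lbh (0.398), Cdkn1c (0.396), Capn6 (0.369) and Cox4i1, a subunit of complex IV (0.363). Pln stood at 0.354, Nppa at 0.0746 and Nppb at 0.011. The most opposed were Bex4 (−0.517) and Vsnl1 (−0.516). These cells share 1 library, and the values are descriptions.

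Markers of other cell types were low. The 15 endothelial and endocardial markers summed to 1.71 per 10000 in Myl2-high cells and 1.55 in the others, against 16.1 in the 408 kept cells that were neither cardiomyocyte nor erythroid. Only 1 of the 15 was high enough to be compared, and it was not called, with a log2 ratio of 0.65. Cdh5 had 1 UMI and Tie1 0 in all Myl2-high cells, and the summed endothelial list ran from 0 to 14.8 per cell. The 13 cushion mesenchyme markers summed to 2.41 against 3.55, mostly Prrx2 (1.96), and the 9 epicardial markers to 1.28 against 1.00, mostly Krt19 (0.996), with Sema3d at 0. The 11 pharyngeal and heart field markers summed to 0.283 against 0.705, with Foxf1, Tbx1, Dlx2 and Nkx2-6 at 0. Globin RNA was alike, at a median of 67.9 and 64.8 per 10000. Genes of the dissociation response also differed between the groups and summed to 12.8 (12.4 to 13.3) against 9.69 (9.502 to 9.88), led by Fos (2.99 against 1.73), and their part in the other differences was not tested.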

How the data were processed

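The E9.5 droplet library and, for comparison, the E16.5 and P0 libraries were used as UMI counts per gene and cell, which the authors deposited as whole numbers without normalization. Cell Ranger 2.1.1 and build mm10 were used, per the submitters' processing notes; per the labels, tissue was digested for 5 or 10 min and 3' libraries were read over 57 nt. For the counting strand and the cell calling, nothing is stated in the sources used here. The E9.5 barcode list holds 737280 entries, more than its 1206 cells, so cells were taken by column and shared barcodes could not be counted. Doublets were not removed in the main values; scrublet marked 5 in the library, 0 of them Myl2-high.

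UMIs were summed per class and divided by the class total, so deeper cells weigh more. Sums have exact Poisson, shares exact Clopper-Pearson and ratios exact conditional binomial 95% intervals. The members, thresholds and gene lists were chosen with earlier results of these data known. Genes named were the markers and rule genes, Nppa, Rspo3, the 12 leading genes each way by this ratio, the 10 most like Myl2 and list members; sparse genes and small calls outside this rule were chosen after their values were seen. Positions come from GENCODE. The ratio and call steps were run on simulated group sums with large changes in abundant genes. Spread between cells, the detection filter and changes in sparse genes were not simulated. Tools were Python 3.11.15, numpy 2.4.6, scipy 1.17.1, pandas 2.3.3, scanpy 1.11.5, matplotlib 3.10.9, R 4.3.3 and edgeR 4.0.16 (its TMM factor only). Alternatives varied thresholds, scaling, the added value, the filter, depth and the reference cells; leaving out the richest cell or the rule's genes was added after seeing the data.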

Additional observations from a re-analysis of the deposited data

Results flagged for a closer look

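Myl2-high cardiomyocytes also appeared in a library outside the comparison. In the E16.5 mitral valve library, 7 of 316 kept cells met the same rule (2.22%, exact Clopper-Pearson 95% interval 0.895 to 4.51). Their Myl2 ran from 66.0 to 274 per 10000 with a median of 168, above the E9.5 median of 34.9. They were shallow, with 1254 to 6251 UMIs each. In their sum of 26041 UMIs, Myh7 stood at 55.7 per 10000 (47.0 to 65.5), Pln at 12.3 (8.41 to 17.3), Myl3 at 117 and Myl7 at 27.3. Nppa and Nppb had 0 UMIs, where the upper bound of the exact interval is 1.42 per 10000. At P0, 0 of 283 cells in one library (exact Clopper-Pearson upper bound 1.30%) and 1 of 177 in the other met the rule. The barcode lists filed with these P0 libraries hold 211 and 291 entries for 291 and 211 cells, so their replicate numbers are in doubt and are not given. Stage, dissected region and library coincide and cannot be told apart.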

How the results depend on the processing

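The number of Myl2-high cells was 154 at a Myl2 threshold of 5 and 89 at 20 per 10000, 90 at a mitochondrial limit of 5%, and 117 with the other cardiomyocyte, globin and doublet settings. The counts of 23 higher and 25 lower genes became 12 and 12 with 0.5 per 10000 added, 40 and 43 without the filter on low values, 63 and 42 against the Nppa-high others, and 38 higher against the others that met neither; the latter 2 settings use fewer reference cells of another kind. Among 59 and 159 cells with 16103 to 26462 UMIs, 17 were higher and 24 lower. Against the Nppa-high others the log2 ratio of Nppb became −0.87 and of Nppa −1.18, where the reference was chosen for Nppa, and against the Rspo3-positive others that of Angpt1 became 0.25, of which the cause was not tested. TMM scaling moved the log2 ratios of the named genes by at most 0.05 and median-of-ratios scaling by at most 0.04. No paired analysis was possible because 1 library holds every cell compared.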

Other observations

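Lyz2, the lysozyme of macrophages, had 58 UMIs in Myl2-high cells and 14 in the other cardiomyocytes, chosen after its value was seen. It was found in 29 of 117 Myl2-high cells (24.8%), 10 of 427 others (2.34%) and 7 of 247 erythroid cells (2.83%); after thinning the shares were 14.3% (8.22 to 22.5), 1.04% (0.285 to 2.65) and 1.27%. The other macrophage and blood markers were near 0 in Myl2-high cells, with 1 UMI of Ptprc, 2 of Csf1r and 0 of C1qa, and the 10 markers together summed to 0.319 per 10000 against 0.0804.

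Of the 63 genes higher in the Nppa-high than in the Rspo3-positive kind of Myl2-high cells, 4 were picked by hand after their values were seen and stand for no group. Srm, spermidine synthase, stood at 2.20 against 0.485 per 10000 (4.53-fold, 3.21 to 6.52), Odc1, ornithine decarboxylase, at 1.56 against 0.497, Ncl, nucleolin, at 6.51 against 2.84, and Hspd1, the mitochondrial chaperonin, at 9.39 against 3.94. The glycolysis list had a sum of 182 in the Nppa-high kind and 260.4 in the Rspo3-positive kind.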
